A study of Mus musculus with 19 samples.

Results

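Chemokine ligands were defined here as the mouse genes whose symbol is Ccl, Cxcl, Xcl or Cx3cl followed by a number and at most 1 letter, with Cxcl15 left out. The rule found 39 genes among the 36528 Entrez gene IDs measured. A group mean of at least 1 CPM, the read count scaled to a common library size, was reached by 24 of the 39, and 6 had no count in any library. The libraries were made from polyadenylated RNA of lung tissue and of AT2 (alveolar type II) cells sorted from lung. AT2 cells are the surfactant-making cells of the lung alveolus and were sorted, per the labels, by EpCAM and tdTomato and the absence of CD45 and CD31.

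The 4 groups were AT2 cells labelled Etv5KO (5 libraries), control AT2 cells (4), lung labelled Etv5KO (5) and control lung (5). Every mouse, controls included, carried SpcCreERT2 and RosatdTomato. SpcCreERT2 is a Cre recombinase driven by the promoter of surfactant protein C and switched on by tamoxifen. The deletion by Cre is therefore aimed at AT2 cells and not at the other cells of the lung. Mice labelled Etv5KO also carried 1 knockout and 1 loxP-flanked allele of Etv5, a transcription factor of the ETS family. A knockout allele needs no Cre, so by the label it was carried in all cells of those mice. In lung, its part and that of the deletion in AT2 cells cannot be told apart. The same holds for the difference between AT2 cells and lung. All mice received tamoxifen at 100 mg/kg body weight over 5 days and were left for 5 more days. The labels give no age and name 5 mice per genotype, while control AT2 cells have 4 libraries among the 19. The reason for that is not given in the sources used here. Nothing ties single libraries to single mice, so p-values measure only the spread between these libraries. Libraries are numbered within a group in order of accession, and the numbers pair nothing.

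Chemokines are small secreted proteins that draw leukocytes along a gradient by binding G protein-coupled receptors on them. The CC and CXC families are named for the spacing of their first cysteines. In lung epithelium, CXC ligands of the receptor CXCR2 are known as rapid neutrophil attractants made on stimulation. CXCL16 and CX3CL1 are made as membrane-bound proteins that can be shed, and CXCL17 is a ligand of mucosal surfaces.

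Etv5 RNA did not fall with the label Etv5KO. Etv5 stood at 730.5, 761, 750.2, 711 and 615 CPM in AT2 cells labelled Etv5KO, against 718, 665, 649 and 636 CPM in control AT2 cells. In lung it stood at 119, 112, 94.4, 119 and 119 CPM in libraries labelled Etv5KO, against 92.9, 103, 109, 111 and 101 CPM in controls. The groups overlapped in both tissues, and edgeR's quasi-likelihood test gave adjusted p = 0.505 in AT2 cells and 0.978 in lung. The part of the gene that the loxP sites flank is not given in the sources used here, so a count over the whole gene model may not check the deletion. Directions are therefore those between libraries by their label. Total counts ran from 14971793 to 28671262 per library, and 0 counts in 1 library allow a level of up to 0.101 to 0.197 CPM (3 counts, counting error only). Control AT2 cells exceeded control lung in all 12 AT2 markers listed, and 14 of 15 macrophage, monocyte and dendritic markers were lower there. The exception was Ly6c2 (22.1 CPM in control AT2 cells and 16.6 CPM in control lung, not past the threshold). Over all genes tested between these groups, 35.6% were higher in control AT2 cells and 38.9% lower (edgeR adjusted p under 0.05). No marker listed for macrophages, neutrophils, lymphocytes, endothelium or fibroblasts was at 0 in a whole AT2 group. The 15 macrophage, monocyte and dendritic markers summed to 90.4 to 103 CPM in AT2 libraries labelled Etv5KO. They summed to 63.4 to 94.5 CPM in control AT2 libraries and 841 to 1341 CPM in control lung. Cd68 and Ly6c2 held a large part of the AT2 sums and were the 2 called higher with the label. Of the 13 tested between the AT2 groups, 8 had a positive and 5 a negative log2 fold change, with a median of 0.007. In these bulk samples, fewer cells of a type and less RNA per cell cannot be told apart.

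Cxcl3, the ligand that passed in AT2 cells, lies near Cxcl1 and Cxcl2 on chromosome 5, and the products of all 3 bind CXCR2. Their promoters are shown because all 3 hold the same letters at a like place. The sequences are the 250 bases before the gene start on the plus strand, from RefSeq's table of build GRCm38.p6, and capitals mark GGGAATTTCCC, the longest stretch of letters that the 3 share, which holds letters of the kind that NF-kB, a transcription factor of inflammatory signalling, is known to bind. The windows are chr5:90785851-90786100 for Cxcl3, chr5:90890995-90891244 for Cxcl1 and chr5:90903649-90903898 for Cxcl2. The reads were aligned to the older build mm9, and genes were matched by ID.
Cxcl3: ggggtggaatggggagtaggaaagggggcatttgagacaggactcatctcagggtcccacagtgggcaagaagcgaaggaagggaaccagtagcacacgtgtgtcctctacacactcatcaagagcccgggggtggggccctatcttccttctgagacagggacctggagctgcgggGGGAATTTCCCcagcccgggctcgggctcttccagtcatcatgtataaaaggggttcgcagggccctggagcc
Cxcl1: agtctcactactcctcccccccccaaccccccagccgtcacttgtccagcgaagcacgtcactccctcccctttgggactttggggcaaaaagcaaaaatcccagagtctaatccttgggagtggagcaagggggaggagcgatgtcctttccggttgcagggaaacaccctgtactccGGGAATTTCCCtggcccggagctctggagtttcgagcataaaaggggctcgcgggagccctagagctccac
Cxcl2: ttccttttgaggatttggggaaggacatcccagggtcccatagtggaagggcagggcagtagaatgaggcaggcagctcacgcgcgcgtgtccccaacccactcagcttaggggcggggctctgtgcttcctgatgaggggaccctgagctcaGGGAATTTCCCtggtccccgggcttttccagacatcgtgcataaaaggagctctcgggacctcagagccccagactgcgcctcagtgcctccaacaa
The first capital lies 73 bases before the start in Cxcl3, 71 in Cxcl1 and 97 in Cxcl2. GGGAATTTCCC, searched on both strands, was found in 14 of 32851 promoter windows of this length in the table (0.0426%). Of the 27 ligands with a promoter in the table, 3 hold it, the ones printed. The ETS letters CCGGAA, searched likewise, were found in 12.03% of windows and in 3 of the 27 ligands, among them Cxcl1 at 101 bases before the start, where they do not overlap the capitals. The stretch was chosen from these sequences after their genes' values had been seen, so that the 3 hold it is no finding, and a match is a description of the sequence only.

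The ligands fell into sets by where they were detected. A mean of at least 1 CPM was reached by 12 ligands in AT2 cells labelled Etv5KO, 12 in control AT2 cells, 19 in lung labelled Etv5KO and 20 in control lung. It was reached in every group by 8 ligands: Ccl5, Ccl6, Ccl25, Cx3cl1, Cxcl12, Cxcl14, Cxcl16 and Cxcl17. It was reached in lung alone by 10 ligands, namely Ccl2, Ccl4, Ccl8, Ccl11, Ccl12, Ccl17, Ccl22, Cxcl9, Cxcl10 and Cxcl13. It was reached in AT2 cells alone by Cxcl1, Cxcl3 and Cxcl5. The remaining 3 of the 24, Ccl3, Ccl9 and Cxcl2, passed in groups of both tissues but not in all 4.

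The highest group means just above the threshold were 1.23 CPM for Ccl12 and 1.31 CPM for Ccl2, both in control lung. Just below it stood Ccl27a at 0.790 CPM in control AT2 cells and Ccl7 at 0.784 CPM in lung labelled Etv5KO. The 6 genes without a count were Ccl19, Ccl21a, Ccl21c, Ccl21d, Ccl26 and Ccl27b. All but Ccl26 lie on chromosome 4 among near-identical copies, and the deposited counts hold uniquely aligned reads only, so for these 5 genes a count of 0 does not show absence. Ccl8 and Ccl12 had counts identical in every library to a second, unnamed ID. Cxcl16, Cxcl17, Cx3cl1, Ccl5, Ccl6, Ccl25, Ccl27a, Cxcl10 and Cxcl11 each overlap another annotated gene, and Ccl3 and Ccl4 overlap each other. Whether strand was used in counting is not given in the sources used here.

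**Figure D1:**
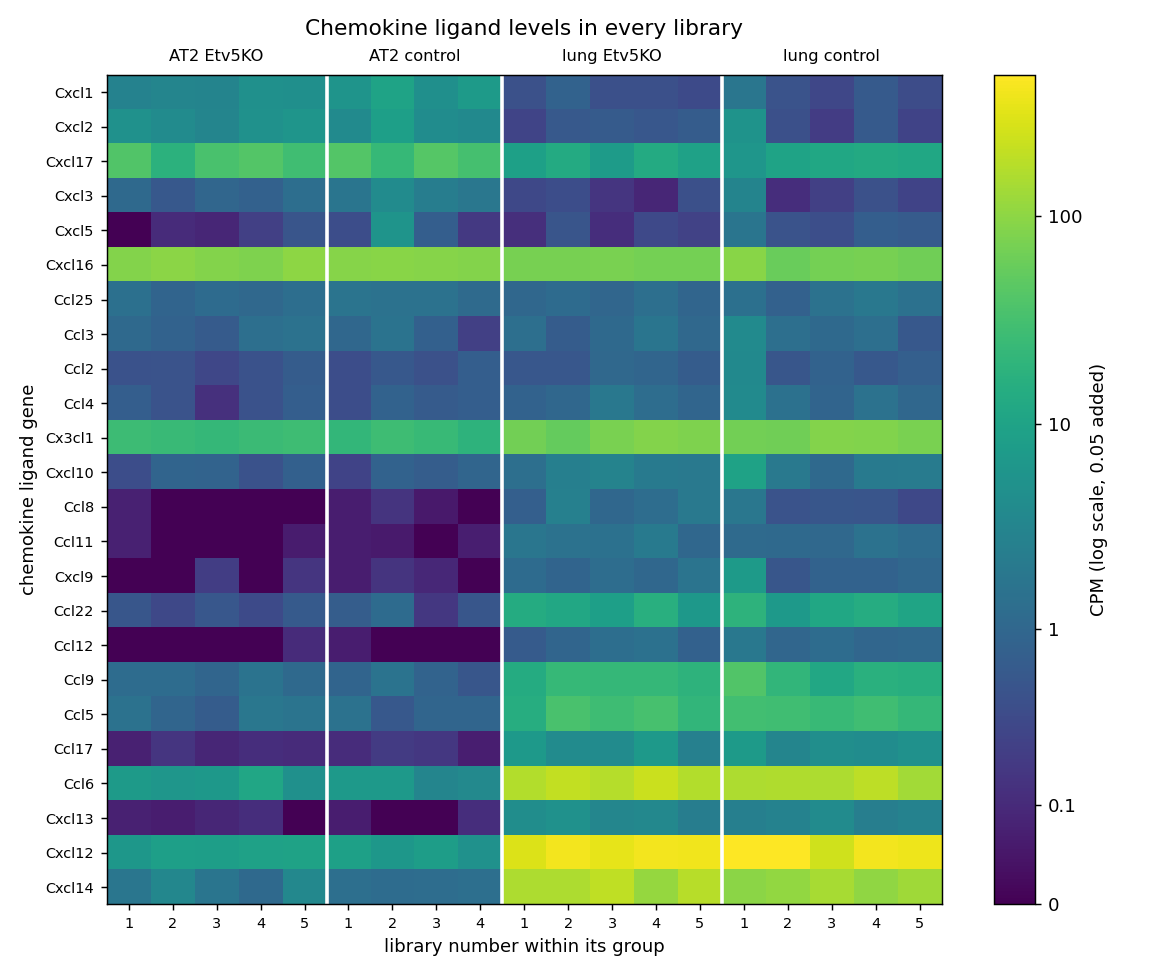
Level of the 24 chemokine ligands with a group mean of at least 1 CPM (rows) in each of the 19 libraries (columns, by group), as CPM on a log colour scale. Rows run from the ligands highest in control AT2 cells relative to control lung at the top to those lowest at the bottom, Cxcl14 at 1.30 ± 0.0736 CPM in control AT2 cells and 116 ± 18.8 CPM in control lung (SD, n = 4 and 5).

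Between genes, levels were compared as the authors' size-factor-adjusted RPKM, which is per length. In control AT2 cells the order began with Cxcl17 at 42.8 ± 11.2 RPKM and Cxcl16 at 33.7 ± 1.60 RPKM (SD, n = 4), whose libraries overlapped. Cx3cl1 followed at 6.87 ± 1.20 RPKM, below every library of Cxcl16, and Cxcl1 stood beside it at 6.83 ± 2.40 RPKM. AT2 cells labelled Etv5KO also began with Cxcl17 at 40.3 ± 11.6 and Cxcl16 at 34.2 ± 2.60 RPKM (SD, n = 5). The lung order was another one. In control lung Ccl6 led at 107 ± 13.5 RPKM, above every library of the next ligand, and was followed by Cxcl12 at 53.6 ± 12.5, Ccl5 at 48.8 ± 6.13 and Cxcl14 at 47.6 ± 7.87 RPKM (SD, n = 5), each overlapping its neighbour. In lung labelled Etv5KO Ccl6 stood at 126 ± 18.3 RPKM and Cxcl14 was second at 66.1 ± 13.5 RPKM, overlapping Cxcl12 at 50.02 ± 6.46 RPKM (SD, n = 5).

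The first comparison asked which ligands differed in AT2 cells with the label Etv5KO. Cxcl3 was the 1 ligand that passed: it fell by 1.36 on the log2 scale, 2.58-fold. Of the 39 ligands, 17 passed the filter on low counts and were tested, and 1 was lower and 0 higher at an adjusted p under 0.05, against 9.87% of all 14939 genes tested (5.03% higher and 4.84% lower). Under scaling by library size alone, 65.0% of the genes that passed were higher, against 50.9% with the main scaling. At an unadjusted p under 0.05, edgeR gave 2 lower (Cxcl1 and Cxcl3) and 1 higher (Cxcl14). DESeq2 called 2 ligands and limma-voom 1. The groups did not overlap for 1 of the 17 ligands, against 12.4% of all genes tested. The median log2 fold change was 0.003 over the 17 ligands and -0.006 over all genes tested.

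Cxcl3, a neutrophil attractant, had 1.12, 0.580, 0.972, 0.806 and 1.34 CPM in AT2 cells labelled Etv5KO, against 1.68, 4.04, 2.38 and 1.84 CPM in control AT2 cells. Every library labelled Etv5KO lay below every control library, and control library 2 was the highest. The counts behind these levels were 11 to 26 per library labelled Etv5KO and 31 to 83 per control library. On the log2 scale Cxcl3 changed by -1.36 (SE 0.31, 95% interval -2.10 to -0.63, edgeR adjusted p = 0.0164), and over 16 alternatives the adjusted p ran from 0.0016 to 0.0392. Without control library 2 the log2 fold change was -1.03 (edgeR adjusted p = 0.0310). That library also stood apart over all genes, with a chi-square per degree of freedom of 34.8 to 56.9 with the other AT2 controls. Pairs among the other AT2 controls had at most 21.3. The Cxcl3 levels of control AT2 cells are to be read with that limit.

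The other CXCR2 ligands lie in the same stretch of chromosome 5 and are given in full although the rule for named genes did not select them; they were chosen after their values were seen. Cxcl1 had 2.82, 3.17, 3.13, 4.95 and 4.80 CPM in AT2 cells labelled Etv5KO, against 5.59, 10.2, 4.72 and 7.23 CPM in control AT2 cells. The 2 highest libraries labelled Etv5KO lay above the lowest control library, and the rest lay below all controls. For Cxcl1 it was -0.87 on the log2 scale (SE 0.25, 95% interval -1.47 to -0.27) with an edgeR adjusted p of 0.0522, just outside the threshold. Under RLE scaling the adjusted p was 0.0499, without the filter 0.0318 and by DESeq2 0.0114, and over 16 alternatives it ran from 0.0114 to 0.117. Without control library 2 it was 0.113, with a log2 fold change of -0.62.

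Cxcl2 had 5.12, 4.12, 3.17, 5.12 and 5.93 CPM in AT2 cells labelled Etv5KO, against 4.02, 8.81, 4.20 and 3.85 CPM in control AT2 cells. Control library 2 stood apart at 8.81 CPM, and the other 3 controls lay within the range of the libraries labelled Etv5KO. Cxcl2 had a log2 fold change of -0.16 (SE 0.27, 95% interval -0.80 to 0.49, edgeR adjusted p = 0.804), and without control library 2 it was 0.22. Cxcl5, best known from epithelial cells, had 0, 0.106, 0.0845, 0.230 and 0.516 CPM in AT2 cells labelled Etv5KO, against 0.380, 5.69, 0.736 and 0.178 CPM in control AT2 cells. Control library 2 held 117 of the 144 control counts of Cxcl5, and the gene did not pass the filter. Without the filter edgeR gave a log2 fold change of -3.18 (adjusted p = 0.0438), and also leaving out control library 2 gave -1.21 (adjusted p = 0.354).

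**Figure D2:**
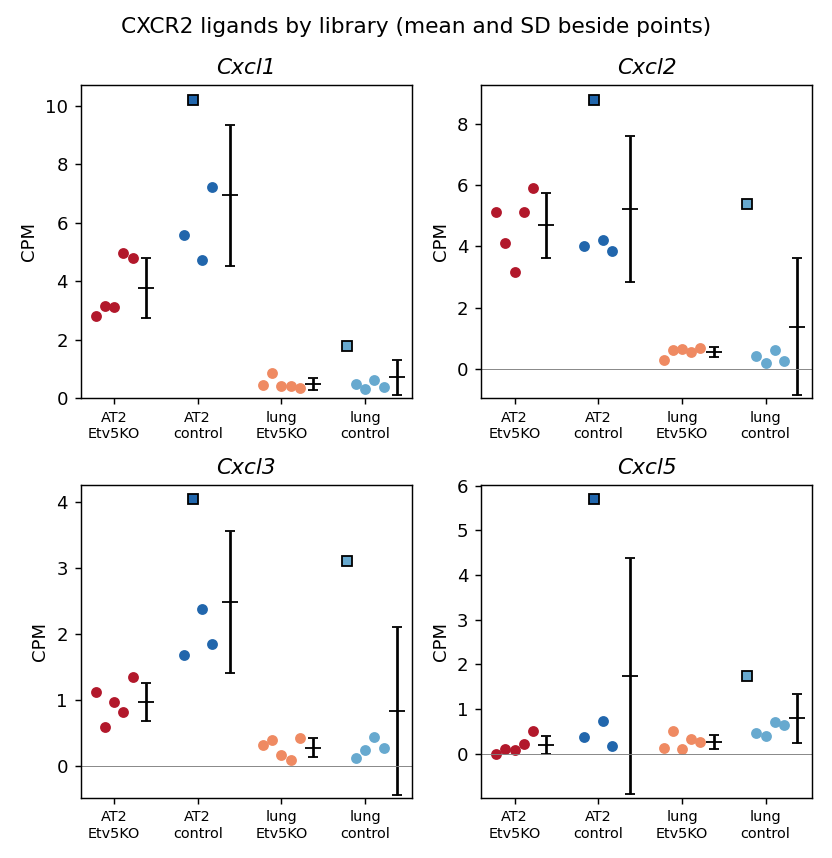
CPM of the 4 CXCR2 ligands in every library (points) with the mean and SD of each group beside them (n = 5, 4, 5 and 5 libraries, left to right); outlined squares mark control AT2 library 2 and control lung library 1. Cxcl3 is the 1 of these 4 ligands whose AT2 groups do not overlap. It stood at 0.963 ± 0.290 CPM in AT2 cells labelled Etv5KO and 2.48 ± 1.08 CPM in control AT2 cells. The outlined libraries are the highest of their group in all 4 panels.

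None of the 3 ligands that lead in AT2 cells passed, and all 3 intervals include 0. Cxcl16, which binds CXCR6 on lymphocytes, had 87.8, 95.8, 87.3, 82.0 and 98.9 CPM in AT2 cells labelled Etv5KO, against 91.5, 95.1, 89.9 and 85.7 CPM in control AT2 cells. The control libraries lay within the range of the others. It had a log2 fold change of 0.00 (SE 0.07, 95% interval -0.16 to 0.17, edgeR adjusted p = 0.990). Cxcl17 had 39.2, 18.3, 33.7, 41.2 and 28.4 CPM in AT2 cells labelled Etv5KO, against 40.9, 23.0, 42.7 and 32.0 CPM in control AT2 cells. Its libraries spread over a wide range within both groups, with a log2 fold change of -0.10 (SE 0.23, 95% interval -0.65 to 0.45, edgeR adjusted p = 0.855). Cx3cl1, the ligand of CX3CR1 on monocytes and lymphocytes, had 26.3, 24.5, 22.4, 26.1 and 27.2 CPM in AT2 cells labelled Etv5KO, against 21.5, 27.9, 24.1 and 18.5 CPM in control AT2 cells. The groups overlapped, with a log2 fold change of 0.14 (SE 0.12, 95% interval -0.13 to 0.42, edgeR adjusted p = 0.539).

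The ligands that lead in lung were low in AT2 cells. Ccl6, a CC ligand known in the mouse from macrophages, had 7.22, 6.02, 6.55, 11.2 and 4.90 CPM in AT2 cells labelled Etv5KO, against 6.84, 6.96, 3.16 and 3.74 CPM in control AT2 cells, with a log2 fold change of 0.47 (SE 0.29, edgeR adjusted p = 0.380). Of 15 macrophage, monocyte and dendritic markers, 13 were tested beside it, and Cd68 (29.0 CPM in AT2 cells labelled Etv5KO and 18.6 CPM in control AT2 cells) and Ly6c2 (33.8 and 22.1 CPM) were higher. The median log2 fold change of the 13 was 0.007, with 8 positive and 5 negative, and the lowest was -0.83. Cxcl12, the ligand of CXCR4, had 6.23, 8.65, 8.37, 9.56 and 9.64 CPM in AT2 cells labelled Etv5KO, against 9.01, 6.37, 8.27 and 5.10 CPM in control AT2 cells, with a log2 fold change of 0.25 (SE 0.18, edgeR adjusted p = 0.483). Ccl5, known from T and NK cells, had 1.51, 0.950, 0.676, 1.84 and 1.65 CPM in AT2 cells labelled Etv5KO, against 1.52, 0.584, 0.952 and 0.949 CPM in control AT2 cells, with a log2 fold change of 0.40 (SE 0.35, edgeR adjusted p = 0.568). All 3 overlapped between the groups. The 12 lymphocyte and NK markers, listed for cells that also make Ccl5, summed to 42.8 to 59.8 CPM in AT2 libraries labelled Etv5KO and 26.7 to 47.1 CPM in control AT2 libraries. The 13 fibroblast, smooth muscle and mesothelial markers, listed for cells that also make Cxcl12 and Cxcl14, summed to 70.6 to 120.5 CPM in AT2 libraries labelled Etv5KO and 53.0 to 83.0 CPM in control AT2 libraries. Endothelial cells also make Cxcl12, and the 14 endothelial and lymphatic markers summed to 289 to 367 CPM and 307 to 376 CPM in the same groups. Of the 13 of them tested, 12 had a positive log2 fold change. The part of these markers in the ligand levels was not tested.

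Cxcl14, which is made by epithelium and fibroblasts, had 1.77, 3.38, 1.73, 1.09 and 3.51 CPM in AT2 cells labelled Etv5KO, against 1.36, 1.22, 1.26 and 1.36 CPM in control AT2 cells. Library 4 labelled Etv5KO lay below all controls and the other 4 lay above them. Its log2 fold change was 0.83 (SE 0.32, 95% interval 0.07 to 1.60, edgeR adjusted p = 0.15003), and without that library it was 1.01 (adjusted p = 0.0476). The 7 other ligands tested had log2 fold changes from -0.42 for Ccl22 to 0.29 for Ccl9, and none passed an unadjusted p of 0.05 in edgeR.

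**Figure D3:**
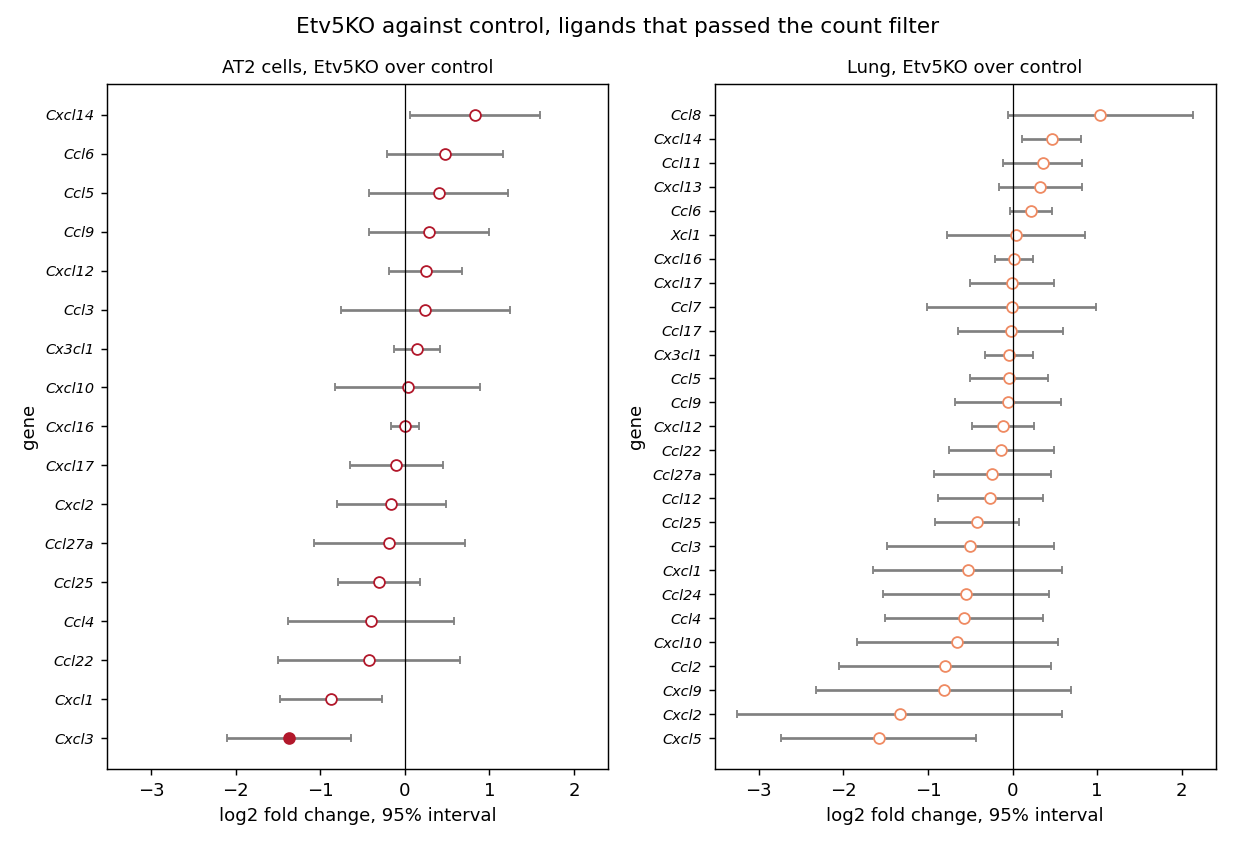
Log2 fold change of libraries labelled Etv5KO over controls with its 95% interval, for the 17 ligands tested in AT2 cells (left) and the 27 tested in lung (right); filled points have an edgeR adjusted p under 0.05. Cxcl3 in AT2 cells, at -1.36, is the 1 filled point, and the widest intervals in lung are those of Cxcl2 and Cxcl9.

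Cxcl1, Cxcl2, Cxcl3 and Cxcl5 share their stretch of chromosome 5 with Ppbp, Pf4 and Cxcl15, further chemokine genes whose symbols or exclusion keep them outside the rule. These neighbours were looked up after the values of Cxcl3 had been seen. Of the 7 protein-coding genes from Cxcl5 to Cxcl2, 5 were tested in AT2 cells, and 3 were lower with the label Etv5KO and 0 higher. Over all 14939 genes tested in AT2 cells, 4.84% were lower and 5.03% higher. Pf4, platelet factor 4, had 0.919, 0.792, 0.634, 0.633 and 0.980 CPM in AT2 cells labelled Etv5KO, against 2.55, 3.65, 2.34 and 1.30 CPM in control AT2 cells, without overlap (log2 fold change -1.64, SE 0.29, edgeR adjusted p = 0.00374). Cxcl15, the chemokine also called lungkine, was the most abundant gene of the stretch: it averaged 8552 ± 1425 CPM in AT2 cells labelled Etv5KO and 13551 ± 1889.8 CPM in control AT2 cells (SD, n = 5 and 4; log2 fold change -0.66, SE 0.14, edgeR adjusted p = 0.0125). Cxcl3, for which the stretch was looked up, was the third of the 3, so the count is not free of that choice. In lung, 6 of the 7 were tested and 0 passed in edgeR, against 0.415% of all genes tested. Cxcl5 and Cxcl15 had an unadjusted p under 0.05, and DESeq2 and limma-voom called Cxcl15 (log2 fold change -0.56, edgeR adjusted p = 0.0638). The interaction of label and tissue passed for Pf4 (AT2 minus lung -1.64, SE 0.31, edgeR adjusted p = 0.00709).

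The signalling lists around the ligands are read in AT2 cells against the 9.87% of all genes that passed. Of 18 chemokine receptors, 10 were tested and 1 was lower: Cxcr4, the receptor of CXCL12, at 5.27 ± 0.736 CPM with the label Etv5KO and 8.09 ± 1.61 CPM in controls (log2 fold change -0.62, SE 0.16, edgeR adjusted p = 0.0320). Of 5 atypical receptors, which bind chemokines without G protein signalling, 4 were tested and 0 passed in edgeR (2 at an unadjusted p under 0.05, 0 by DESeq2 and by limma-voom). Of 24 NF-kB pathway and feedback genes, all were tested and 0 passed in edgeR (3 at an unadjusted p under 0.05, 3 by DESeq2, 0 by limma-voom), with a median log2 fold change of 0.06. Of 18 interferon response genes, 16 were tested and Gbp2 was higher (9.82 CPM in AT2 cells labelled Etv5KO and 5.25 CPM in control AT2 cells; log2 fold change 0.90, SE 0.17). Of 16 immediate early genes, all were tested and Jun was lower (1891 CPM in AT2 cells labelled Etv5KO and 2619 CPM in control AT2 cells; log2 fold change -0.47, SE 0.12), with a median of -0.30 over the list. These genes, which tissue dissociation is known to induce, summed to 11479 to 15157 CPM in AT2 cells labelled Etv5KO and 13807 to 20155 CPM in control AT2 cells, against 1095 to 1376 CPM in control lung. Their part in the levels of the CXCR2 ligands was not tested.

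Cell markers in AT2 cells are read against the same background, 5.03% of all genes tested higher and 4.84% lower. The airway list had 4 of 8 members higher with the label Etv5KO (Cyp2f2, Tppp3, Bpifb1 and Muc5b). Its sum was 780 to 1142 CPM against 409 to 825 CPM in controls. The AT2 list had 3 of 12 members lower (Sftpa1, Lpcat1 and Napsa). Of 13 endothelial and lymphatic markers tested, Esam was lower, while 12 had a positive log2 fold change and the median was 0.26. Of 11 fibroblast, smooth muscle and mesothelial markers tested, Msln was higher, and the median log2 fold change was 0.54, with all 11 positive. The 1 call in each of these 2 lists is near the 9.87% of all genes that passed. Of 6 neutrophil markers tested 0 passed in edgeR (1 at an unadjusted p under 0.05, 0 by DESeq2 and by limma-voom), and of 6 lymphocyte and NK markers tested 0 passed (2 at an unadjusted p under 0.05, 1 by DESeq2, 0 by limma-voom).

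In lung, the second comparison gave no ligand past the threshold with the label Etv5KO. Of the 39 ligands, 27 were tested and 0 passed in edgeR, against 0.415% of all 17098 genes tested (0.205% higher and 0.211% lower). The groups overlapped for all 27, while they did not for 1.52% of all genes tested. By DESeq2 0 passed and by limma-voom 0, while at an unadjusted p under 0.05 edgeR gave 2 higher (Cxcl14 and Ccl8) and 1 lower (Cxcl5). The median log2 fold change was -0.11 over the 27 ligands and -0.01 over all genes tested. The widest interval was that of Cxcl2, from -3.25 to 0.59.

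The 3 ligands with the highest levels in control lung had overlapping groups. Ccl6 had 167, 203, 170.5, 225 and 165 CPM in lung labelled Etv5KO, against 152, 162, 157, 189.6 and 135 CPM in control lung (log2 fold change 0.22, SE 0.11, 95% interval -0.03 to 0.47, edgeR adjusted p = 0.949). Cxcl12 had 299, 406, 345, 401 and 394 CPM in lung labelled Etv5KO, against 477, 477, 249, 401 and 379 CPM in control lung (log2 fold change -0.11, SE 0.16, 95% interval -0.48 to 0.26, edgeR adjusted p = 0.978). Ccl5 had 14.8, 34.5, 27.5, 33.6 and 20.6 CPM in lung labelled Etv5KO, against 30.2, 29.1, 24.3, 28.5 and 22.1 CPM in control lung (log2 fold change -0.04, SE 0.20, 95% interval -0.50 to 0.42, edgeR adjusted p = 0.992). The lowest and the highest value of Ccl5 both came from libraries labelled Etv5KO.

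The 3 ligands that lead in AT2 cells were also measured in lung. Cxcl16 had 72.5, 73.8, 76.8, 70.5 and 71.5 CPM in lung labelled Etv5KO, against 92.9, 59.5, 69.5, 72.7 and 64.9 CPM in control lung (log2 fold change 0.02, SE 0.10, edgeR adjusted p = 0.992). Control library 1 was the highest and the libraries labelled Etv5KO lay within the control range. Cxcl17 had 9.24, 13.6, 7.46, 13.4 and 9.30 CPM in lung labelled Etv5KO, against 6.11, 9.96, 11.9, 13.1 and 11.9 CPM in control lung (log2 fold change -0.01, SE 0.22, edgeR adjusted p = 0.998). Cx3cl1 had 68.2, 55.4, 76.4, 88.6 and 81.7 CPM in lung labelled Etv5KO, against 67.9, 65.3, 87.6, 83.0 and 74.7 CPM in control lung (log2 fold change -0.04, SE 0.12, edgeR adjusted p = 0.991). The groups of both overlapped.

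Cxcl14, Ccl8 and Cxcl5 had an unadjusted p under 0.05 and are given in full, chosen after their values were seen. Cxcl14 had 154, 155, 201, 112 and 180.1 CPM in lung labelled Etv5KO, against 95.7, 109.8, 142, 104 and 128 CPM in control lung. Of the 5 libraries labelled Etv5KO, 4 lay above every control. Cxcl14 had a log2 fold change of 0.46 (SE 0.15, 95% interval 0.12 to 0.81, edgeR adjusted p = 0.479). Of the 13 fibroblast, smooth muscle and mesothelial markers tested in lung, 0 passed in edgeR, against 0.415% of all genes. Their median log2 fold change was 0.26, with 10 positive and 3 negative. They summed to 2446 to 4694 CPM in lung labelled Etv5KO and 2572 to 4578 CPM in control lung. Their part in the Cxcl14 level was not tested. Ccl8, a CC ligand of monocytes, had 0.757, 2.68, 1.00, 1.25 and 1.99 CPM in lung labelled Etv5KO, against 1.82, 0.469, 0.536, 0.503 and 0.317 CPM in control lung. Control library 1 stood above 3 of the libraries labelled Etv5KO and the other 4 controls below all of them (log2 fold change 1.04, SE 0.47, edgeR adjusted p = 0.900). Cxcl5 had 0.119, 0.510, 0.115, 0.333 and 0.254 CPM in lung labelled Etv5KO, against 1.74, 0.469, 0.402, 0.719 and 0.634 CPM in control lung. Library 2 labelled Etv5KO lay within the control range and the other 4 below it (log2 fold change -1.58, SE 0.50, edgeR adjusted p = 0.440). In the macrophage list Marco, a scavenger receptor of alveolar macrophages, was the 1 of 15 members tested that passed, at 6.53 CPM in lung labelled Etv5KO and 15.9 CPM in control lung (log2 fold change -1.29, SE 0.21, edgeR adjusted p = 0.0167). Of the AT2 list, Sftpa1 was lower (log2 fold change -0.78, SE 0.14, edgeR adjusted p = 0.0305). In edgeR 0 receptors of 17 tested and 0 interferon genes of 18 passed in lung, also at an unadjusted p under 0.05 and by DESeq2 and limma-voom. Of 23 NF-kB genes 0 passed in edgeR, DESeq2 or limma-voom, and 2 had an unadjusted p under 0.05.

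1 control lung library stood apart for inflammatory ligands and also over all genes, which bears on every lung value of these ligands. Over all genes, control lung library 1 had a chi-square per degree of freedom of 28.6 to 41.1 with the other controls. Pairs among the other controls had 11.5 to 20.2. The share of all genes for which it was the highest control was not computed. Control lung library 1 was the highest of the 5 controls for 12 of the 20 ligands with at least 1 CPM in that group, and at least 2 times the next control for 6 of them. Cxcl10, an interferon-induced ligand of CXCR3, had 1.35, 2.59, 2.92, 2.13 and 1.99 CPM in lung labelled Etv5KO, against 9.85, 1.99, 1.11, 2.09 and 2.22 CPM in control lung. Cxcl9, its neighbour on chromosome 5, had 1.19, 0.892, 1.27, 1.00 and 1.65 CPM in lung labelled Etv5KO, against 7.30, 0.527, 0.838, 0.827 and 1.00 CPM in control lung. In both genes library 1 lay above all 9 other lung libraries. Cxcl2 had 0.279, 0.595, 0.654, 0.542 and 0.677 CPM in lung labelled Etv5KO, against 5.39, 0.410, 0.201, 0.611 and 0.264 CPM in control lung. Ccl2, a monocyte attractant, had 0.557, 0.552, 1.04, 0.958 and 0.677 CPM in lung labelled Etv5KO, against 3.86, 0.527, 0.838, 0.575 and 0.740 CPM in control lung.

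Leaving out control lung library 1 turned the direction of several ligands, none of which passed with or without it. The log2 fold change of Cxcl2 was -1.33 with it and 0.54 without it, that of Cxcl9 was -0.82 and 0.56, that of Cxcl10 was -0.65 and 0.26, and that of Ccl2 was -0.80 and 0.15. Cxcl5 kept its direction, at -1.58 with the library and -1.07 without it (edgeR adjusted p = 0.440 and 0.383). Ccl8 was at 1.04 with it and 1.69 without it (edgeR adjusted p = 0.900 and 0.103). The same library had the highest sum of the macrophage, monocyte and dendritic list, at 1341 CPM against 1083 CPM in the next control. It also had the highest control sum of the fibroblast, smooth muscle and mesothelial list (4578 CPM, next 3161), the NF-kB list (1745, next 1550), the receptor list (394, next 356) and, narrowly, the immediate early list (1376, next 1333). It was not the highest control for the neutrophil, lymphocyte or interferon lists. The part of these lists in the ligand levels was not tested.

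**Figure D4:**
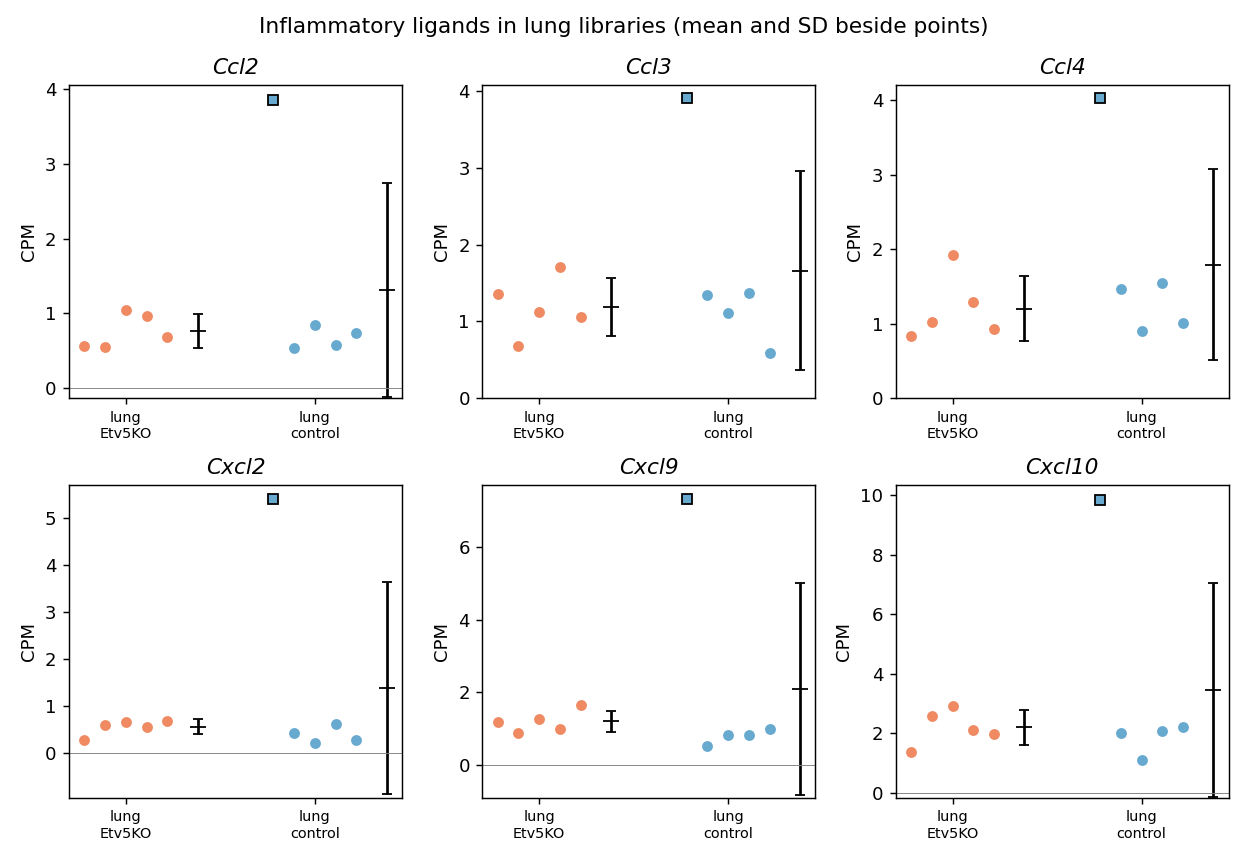
CPM of 6 inflammatory ligands in the 10 lung libraries (points), labelled Etv5KO on the left and control on the right, with the mean and SD of each group beside them (n = 5 each); the outlined square is control lung library 1. That library is the highest point in each panel, at 9.85 CPM for Cxcl10 and 7.30 CPM for Cxcl9, and the other 9 libraries overlap.

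Whether the effect of the label differed between AT2 cells and lung was tested as an interaction over all 19 libraries. Of 29 ligands tested, 0 passed in edgeR, against 1.59% of all 17698 genes tested (0.791% higher and 0.802% lower). By DESeq2 and limma-voom 0 passed, and at an unadjusted p under 0.05 edgeR gave 1 ligand, Ccl28, a mucosal CC ligand below 1 CPM in every group. For Cxcl3 the difference of the 2 log2 fold changes (AT2 minus lung) was 0.25 (SE 0.89, 95% interval -1.64 to 2.14, edgeR adjusted p = 0.977). The fall of Cxcl3 in AT2 cells was thus not shown to differ from its lung values, and without control lung library 1 the difference was -1.35 (edgeR adjusted p = 0.391). In the lung comparison Cxcl3 did not pass the filter. Without the filter its lung log2 fold change was -1.61 (edgeR adjusted p = 0.841), and -0.01 when control lung library 1 was also left out. That library had 3.10 CPM, against 0.117 to 0.431 CPM in the other controls and 0.0833 to 0.423 CPM in lung labelled Etv5KO. For Cxcl16 the difference was -0.02 (95% interval -0.30 to 0.25) and for Cx3cl1 0.17 (95% interval -0.21 to 0.54).

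The last comparison asked where the ligands are found in control mice, sorted AT2 cells against whole lung. Of 29 ligands tested, 4 were higher in control AT2 cells, 18 were lower and 7 did not pass in edgeR. The background was large: 74.5% of all 17118 genes tested passed, 35.6% as higher and 38.9% as lower. The groups did not overlap for 19 of the 29 ligands, against 66.5% of all genes tested. The median log2 fold change was -2.33 over the 29 ligands and -0.01 over all genes tested. Under scaling by library size alone the median of all genes lay 0.41 lower, and the share of passing genes that were higher was 25.9%, against 47.8% with the main scaling. Ligand changes are therefore to be read against that shift.

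Of the 4 CXCR2 ligands tested, 2 were higher in control AT2 cells (Cxcl1 and Cxcl2) and 2 did not pass. Cxcl1 averaged 6.94 ± 2.42 CPM in control AT2 cells and 0.707 ± 0.612 CPM in control lung (SD, n = 4 and 5), without overlap, with a log2 fold change of 3.28 (SE 0.44, edgeR adjusted p = 2.65e-05), which was 3.96 without control lung library 1. Cxcl2 averaged 5.22 ± 2.40 CPM in control AT2 cells and 1.38 ± 2.25 CPM in control lung, with a log2 fold change of 1.91 (edgeR adjusted p = 0.0415). Its call was lost without any of control AT2 libraries 1, 2 or 3 or control lung libraries 2, 3, 4 or 5 (adjusted p up to 0.114) and under scaling by library size alone (0.107), while without control lung library 1 the log2 fold change was 3.78 (4.70e-06). Cxcl3 stood at 2.48 ± 1.08 CPM in control AT2 cells and 0.8291 ± 1.27 CPM in control lung and did not pass (log2 fold change 1.56, edgeR adjusted p = 0.0668), and without control lung library 1 it did (3.16, 2.06e-05). In each of the 3, control lung library 1 was the highest lung library. Cxcl5, at 1.75 ± 2.64 CPM in control AT2 cells and 0.793 ± 0.544 CPM in control lung, did not pass (log2 fold change 1.15, edgeR adjusted p = 0.220), and without control AT2 library 2 it turned to -0.79 (adjusted p = 0.234). The immediate early list was also higher in control AT2 cells for 14 of 16 members and lower for 1. Over all genes tested, 35.6% were higher and 38.9% lower. The part of these immediate early genes in the levels of the CXCR2 ligands was not tested.

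Cxcl17 was higher in control AT2 cells at 34.7 ± 9.07 CPM, against 10.6 ± 2.75 CPM in control lung (log2 fold change 1.71, SE 0.22, edgeR adjusted p = 2.08e-05). Cxcl16 was close to level, at 90.5 ± 3.91 CPM in control AT2 cells and 71.9 ± 12.7 CPM in control lung (log2 fold change 0.33, SE 0.11, edgeR adjusted p = 0.0180), and under scaling by library size alone it turned to -0.07 (0.620). Ccl25, known as a thymic and gut ligand, stood at 1.46 ± 0.225 CPM in control AT2 cells and 1.45 ± 0.402 CPM in control lung (95% interval of the log2 fold change -0.56 to 0.55).

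Of the ligands that were lower, Cxcl14 averaged 1.30 ± 0.0736 CPM in control AT2 cells and 116 ± 18.8 CPM in control lung (log2 fold change -6.48, SE 0.16). Cxcl12, known from stromal and endothelial cells, was at 7.19 ± 1.78 CPM against 397 ± 93.5 CPM (-5.78, SE 0.25), Ccl6 at 5.17 ± 2.01 CPM against 159 ± 19.9 CPM (-4.95, SE 0.23) and Ccl5 at 1.00 ± 0.386 CPM against 26.8 ± 3.48 CPM (-4.75, SE 0.21). The edgeR adjusted p of each was 2.06e-09 or lower, and no library of 1 group overlapped the other. Cx3cl1 was lower by less, at 23.0 ± 4.001 CPM in control AT2 cells and 75.7 ± 9.55 CPM in control lung (log2 fold change -1.72, SE 0.13). Ccl9, a ligand of CCR1 in the mouse, was at 0.982 ± 0.450 CPM against 20.9 ± 10.7 CPM. The CCR4 ligands Ccl17 and Ccl22, known from dendritic cells, were both lower, at 0.134 ± 0.0617 CPM against 4.90 ± 1.49 CPM and at 0.645 ± 0.413 CPM against 12.5 ± 4.34 CPM. Cxcl13, the B cell attractant, was at 0.0432 ± 0.0564 CPM against 2.98 ± 0.645 CPM, and the eosinophil attractant Ccl11 at 0.0406 ± 0.0274 CPM against 1.21 ± 0.197 CPM. Ccl24 had 0 counts in all 4 control AT2 libraries and 0.734 CPM in control lung, at least 19.3-fold lower in AT2 cells against a limit of 3 counts over the group, and the median of the 29 ligands with Ccl24 at that bound was also -2.33. CXCR3 ligands moved with control lung library 1: Cxcl9 was at -4.70 with it and -3.32 without it, and Cxcl10 at -2.33 and -1.42, all past the threshold. Of 17 chemokine receptors tested, 16 were lower in control AT2 cells and 0 higher, against 38.9% and 35.6% of all genes tested. Among the 16 was Cxcr2, at 0.746 CPM against 26.9 CPM.

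**Figure D5:**
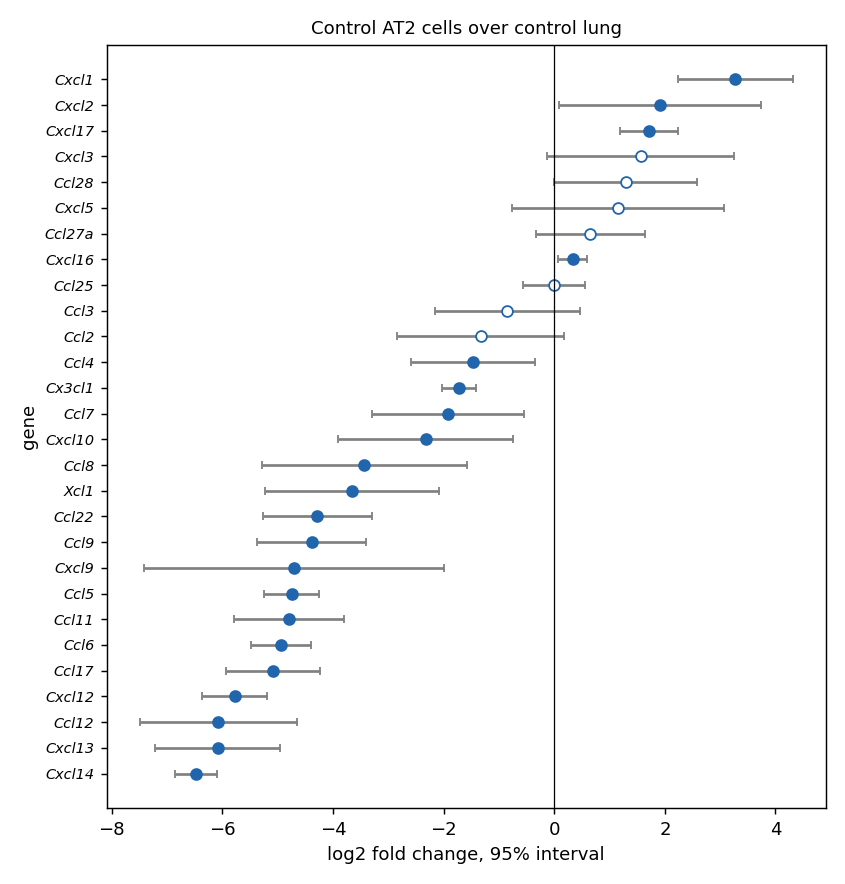
Log2 fold change of control AT2 cells over control lung with its 95% interval for 28 chemokine ligands; filled points have an edgeR adjusted p under 0.05, and Ccl24, at 0 counts in all control AT2 libraries, is not drawn. The ligands run from Cxcl1 at 3.28 to Cxcl14 at -6.48, and Cxcl16 at 0.33 turns to -0.07 when libraries are scaled by their size alone.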

How the data were processed

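RNA was measured in 19 libraries of 4 groups. The deposited counts give, per the file headers, the uniquely aligned reads of each gene model, and the authors' second column is an RPKM that they adjusted by a size factor per library. GSNAP and the build mm9 are named in the submitters' processing notes; counting tool, annotation and strand setting are not known here. Unique alignment lowers genes with near-identical copies. Entrez IDs were named from RefSeq (31049) and GENCODE (78), 5401 stayed unnamed, and named IDs held 98.8% of counts. No replicate pair was a duplicate (chi-square per degree of freedom 7.30 to 56.9).

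CPM used TMM scaling over all 19 libraries. Counts were tested in R 4.3.3 with edgeR 4.0.16 (quasi-likelihood F test, two-sided, TMM, filterByExpr with a minimum count of 10 and a minimum total of 15, Benjamini-Hochberg over all genes tested, threshold 0.05), separately in AT2 cells, lung, both control groups and, for the interaction, all libraries. The 95% intervals use the SE from the F statistic and residual degrees of freedom. Alternatives were RLE scaling, library size, the authors' size factors, no filter, DESeq2 1.42.0, limma-voom (limma 3.58.1) and each library left out. 2 combinations of no filter with a library left out were added after seeing the data. The fits were tested on simulated data.

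The ligands with at least 1 CPM in a group are described, in full where a ligand passed in an Etv5KO comparison or the interaction or ranked in the top 3 by RPKM in a control group, along with listed genes that passed (up to 4 per list). Members and lists were chosen with earlier results of these data known.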

Additional observations from a re-analysis of the deposited data

Results flagged for a closer look

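Within groups, 63 sets of values (a ligand in a group of 4 or 5 libraries) were screened for a library far from the others, and 10 were found. The rule flags about 1 in 20 sets of independent, normally spread values, which these were not shown to be. Control lung library 1 gave 7 of the 10, which are not separate draws, so the count is not set against chance. It stood at 9.85 CPM for Cxcl10 (next control 2.22), 7.30 for Cxcl9 (1.00), 5.39 for Cxcl2 (0.611), 4.03 for Ccl4 (1.55), 3.90 for Ccl3 (1.37), 3.86 for Ccl2 (0.838) and 1.91 for Ccl12 (1.21). Control lung library 3 stood at 4.09 CPM for Cxcl13 (next 2.91). Control AT2 library 2 stood at 8.81 CPM for Cxcl2 (next 4.20) and 5.69 CPM for Cxcl5 (0.736). It also had the highest control AT2 sum of the macrophage, monocyte and dendritic list (94.5 CPM, next 74.9). The same held for the fibroblast, receptor and interferon lists, but not for the neutrophil, lymphocyte, NF-kB or immediate early lists. The part of these lists in the AT2 ligand levels was not tested.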

How the results depend on the processing

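No paired analysis was possible because the labels give no replicate numbers and do not tie libraries to mice. The count of ligands past the threshold in AT2 cells, 1 in the main analysis, was 2 under RLE scaling, 3 without the filter and 2 by DESeq2, and 1 to 3 with single libraries left out; Cxcl3 was among them in every setting, and the others were Cxcl1, Cxcl5, Cxcl14 and Ccl28. In lung and for the interaction the count of ligands was 0 in every setting. Over all genes, lung gave 71 in the main analysis, 197 by DESeq2 and 44 to 80 with single libraries left out, and the interaction gave 282 and, by DESeq2, 467. Of passing genes in AT2 cells, 50.9% were higher, against 65.0% under library size alone. Between control AT2 cells and control lung, 19 to 24 ligands passed over all settings, and Cxcl16 turned to -0.074 under library size alone; the cause was not tested. DESeq2 gave no adjusted p for Cxcl2, Cxcl3, Cxcl5 and Cxcl9 there, for Cxcl2 and Cxcl9 in lung, or for Cxcl9 in the interaction. The count of 24 ligands at 1 CPM was 24 under library size alone, 29 at 0.5 CPM and 16 at 2 CPM. Depth limits the low ligands: Cxcl3 rests on 11 to 83 counts per AT2 library and 2 to 73 per lung library.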
